A study of Mus musculus with 6 samples.

Results

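The DNAJ genes, which encode the J-domain co-chaperones of the Hsp70 machinery, were read in GL261 cells, a mouse glioma line, after sodium propionate or sodium chloride. Members were all genes of the files whose name is Dnaja, Dnajb or Dnajc followed by a number and, at most, a further letter a or b. These were 44 of 58327 genes, with 4 in class A, 13 in class B and 27 in class C. RNA was taken 4 h after the addition of 1 uM of either salt, per the labels, and both salts carry sodium. Propionate is usually given to cultured cells at millimolar doses, and the unit in the labels could not be checked. The 3 chloride libraries are numbered 1, 2 and 3 and the 3 propionate libraries 1, 4 and 5. Nothing in the labels ties the libraries of a group to separate cultures. The p-values therefore cover the spread among these 6 libraries alone, and this spread may be technical.

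A J-domain protein binds an Hsp70, stimulates its ATPase and hands it a client protein, so the choice of co-chaperone directs where and on what an Hsp70 works. Class A proteins have the full domain order of bacterial DnaJ, class B proteins lack its zinc-binding region, and class C proteins share little beyond the J domain and serve in many separate places. Members work in the cytosol, the endoplasmic reticulum (ER), mitochondria, the nucleus and on vesicles, and some are induced when unfolded protein accumulates.

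Levels are given as scaled TPM (a relative transcript abundance, summed over the transcript models of a gene, a measure per length that allows genes to be compared). Differences are propionate minus chloride on the log2(TPM + 1) scale, with a standard error (SE) or a 95% interval from limma and n = 3 per group. In bulk RNA, fewer cells with a transcript and less of it per cell cannot be told apart. Depth, taken as coverage divided by FPKM, was 9.15 to 11.3 Gb per library, and the coverage summed over all models came to 8.30 to 10.3 Gb. Values per Gb use the first of these. Chloride 3 and propionate 1 stood apart, with 71452 and 71192 transcript models that had any coverage, against 81178 to 82370 in the other libraries. Of 9 astroglial and neural stem markers, 6 reached 1 TPM, led by Vim at 2764 to 3402 TPM, while Sox9 and Slc1a3 were at or near 0 and Gfap stood at 0.547 to 1.31 TPM. All 5 oligodendrocyte lineage markers reached a mean of 1 TPM, led by Cspg4 at 145.8 to 185.5 TPM and Sox10 at 85.6 to 109.9 TPM. Pdgfra stood at 5.41 to 6.30 TPM, Olig2 at 1.15 to 1.96 TPM and Olig1 at 0.887 to 1.56 TPM. Of 5 neuron markers 1 reached 1 TPM, Tubb3 at 73.9 to 89.9 TPM, while Rbfox3 and Snap25 were listed at 0 in every library. Of 4 fibroblast and pericyte markers 1 reached 1 TPM, Pdgfrb at 1.05 to 1.97 TPM. No endothelial marker of 4 reached 1 TPM, and 2 of 5 myeloid markers did, with a summed level of 4.61 to 6.26 TPM.

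The family was broadly transcribed, and a few members made up most of it. Of the 44 genes, 11 had a mean of at least 50 TPM, 14 lay between 10 and 50 TPM, 12 between 1 and 10 TPM, and 7 were under 1 TPM. The 10 highest members held 68.2% of the summed family TPM. Dnajb11, a soluble BiP co-chaperone of the ER lumen on chromosome 16, was the highest member in all 6 libraries. Its levels were 187.6, 201.4 and 168.3 TPM in chloride 1, 2 and 3 and 169.8, 211.7 and 202.1 TPM in propionate 1, 4 and 5. The groups overlapped, and the lowest library of each salt was the one that stood apart.

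Next in order were Dnaja2 at 168.7 TPM over the 6 libraries, Dnajc10 at 153.7, Dnajc9 at 129.5 and Dnaja1 at 97.1. Dnaja1 and Dnaja2 are general cytosolic partners of Hsp70, Dnajc10 is a disulfide reductase of the ER, and Dnajc9 is a histone chaperone. They were followed by the splicing-associated Dnajc8 at 79.9 TPM, the ribosome-associated Dnajc2 at 79.7, Dnajb6, known for keeping polyglutamine proteins from aggregating, at 66.7, the mitochondrial import factor Dnajc19 at 59.5 and Dnajc7, which binds both Hsp70 and Hsp90, at 57.3. Of the 9 neighbouring pairs in this order, 8 had ranges over the 6 libraries that overlapped. The exception was the step from Dnajc9, never under 117.2 TPM, to Dnaja1, never over 103.3 TPM. In class B, the next after Dnajb11 and Dnajb6 was the cytosolic Dnajb4 at 46.8 TPM.

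**Figure D1:**
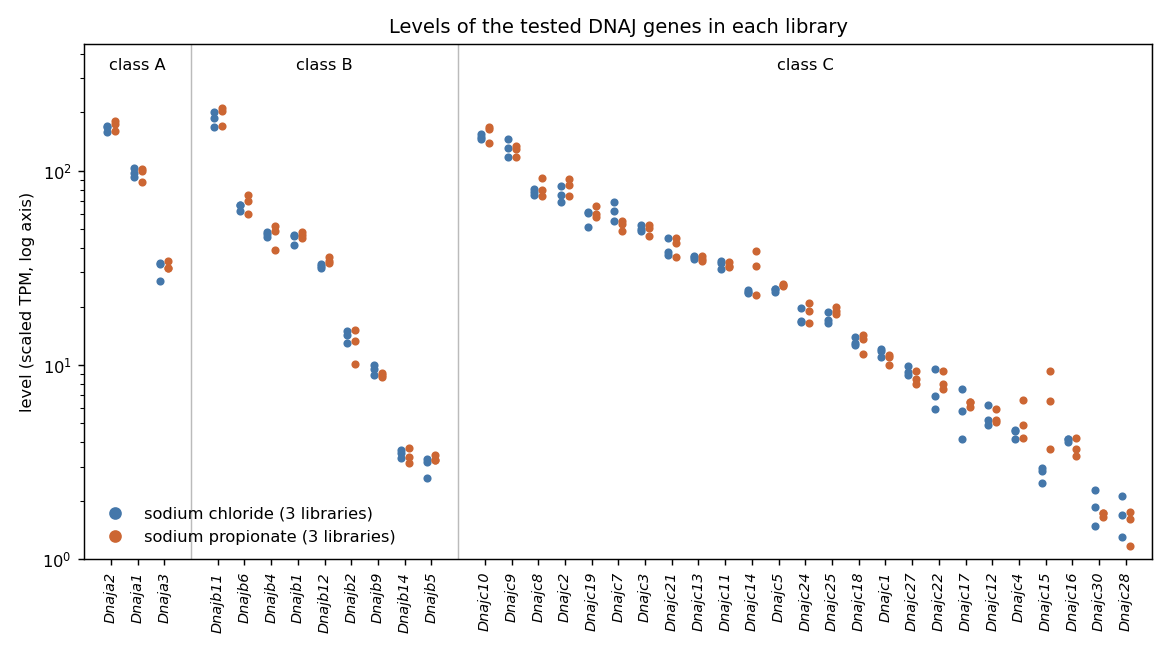
Scaled TPM (log axis) of the 37 DNAJ genes whose mean reached 1 TPM, by class and in order of mean level. Each point is 1 library, with chloride at the left and propionate at the right of each gene. Members span from Dnajb11 at 190.2 TPM to Dnajc28 at 1.61 TPM, and the libraries of a gene lie close together beside that span.

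The classes differed in how their levels were spread. Class A held 9.09% of the members but 18.8% of the summed TPM, class B 29.5% of the members and 26.0% of the TPM, and class C 61.4% and 55.2%. The median gene stood at 64.5 TPM in class A, 9.18 TPM in class B and 18.2 TPM in class C. Class A summed to 306.3, 297.7 and 279.7 TPM in the chloride libraries and to 279.7, 318.8 and 304.5 TPM in the propionate libraries. Class B summed to 413.1, 423.3 and 381 TPM in chloride and to 377.4, 449.9 and 432 TPM in propionate. Class C summed to 889.8, 889.4 and 820.9 TPM in chloride and to 821.8, 933.4 and 909.3 TPM in propionate. In all 3 classes the groups overlapped, chloride 3 was the lowest chloride library, and propionate 1 was the lowest propionate library.

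The members under 1 TPM were Dnaja4, Dnajb3, Dnajb7, Dnajb8, Dnajb13, Dnajc5b and Dnajc6, and they were not tested. Dnajc5b, a relative of the cysteine string protein, was listed at 0 in every library. Dnajc6 encodes auxilin, the clathrin-uncoating factor of neurons, and reached at most 0.0256 TPM. The nearest members on either side of the filter were Dnajb7 at 0.391 TPM outside it, and Dnajc28 at 1.61 TPM and Dnajc30 at 1.79 TPM inside it.

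The comparison of the salts asked whether propionate moved the family. No DNAJ gene passed an adjusted p of 0.05 by limma, and the smallest adjusted p was 0.913, in a fit over 15507 genes of which 0.00645% passed. Of the 37 tested members, 20 stood higher and 17 lower in propionate. At an unadjusted p under 0.05 there was 1 higher member, Dnajc15, and 1 lower member, Dnajc7. Together these are 5.41% of the members tested, against 5.14% of all genes (2.16% higher and 2.98% lower), so the share was that of the background. By voom on estimated reads, 0 of all genes passed the threshold, and 0 members and 827 of all genes had an unadjusted p under 0.05. The groups did not overlap for 3 members, Dnajc15, Dnajb12 and Dnajc5, all higher in propionate. This is 8.11% of the members against 11.7% of all genes (5.25% higher and 6.48% lower).

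The median difference over the tested members was 0.06 on the log2 scale, beside 0.01 over all genes tested. It was 0.06 in class A, 0.06 in class B and 0.04 in class C. Differences ran from -0.24 for Dnajc7 to 0.93 for Dnajc15, and 33 of the 37 were under 0.15 in size. On this log2(TPM + 1) scale, the 95% interval of the gene itself lay within 1.5-fold in both directions for 35 members. Dnajc14 and Dnajc15 were the exceptions. The added 1 shrinks the differences of members at low levels, so for those the interval does not bound the fold change. Dnajc28, at 1.61 TPM, differed by -0.10 (SE 0.18) on this scale and by -0.15 (SE 0.22) by voom.

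**Figure D2:**
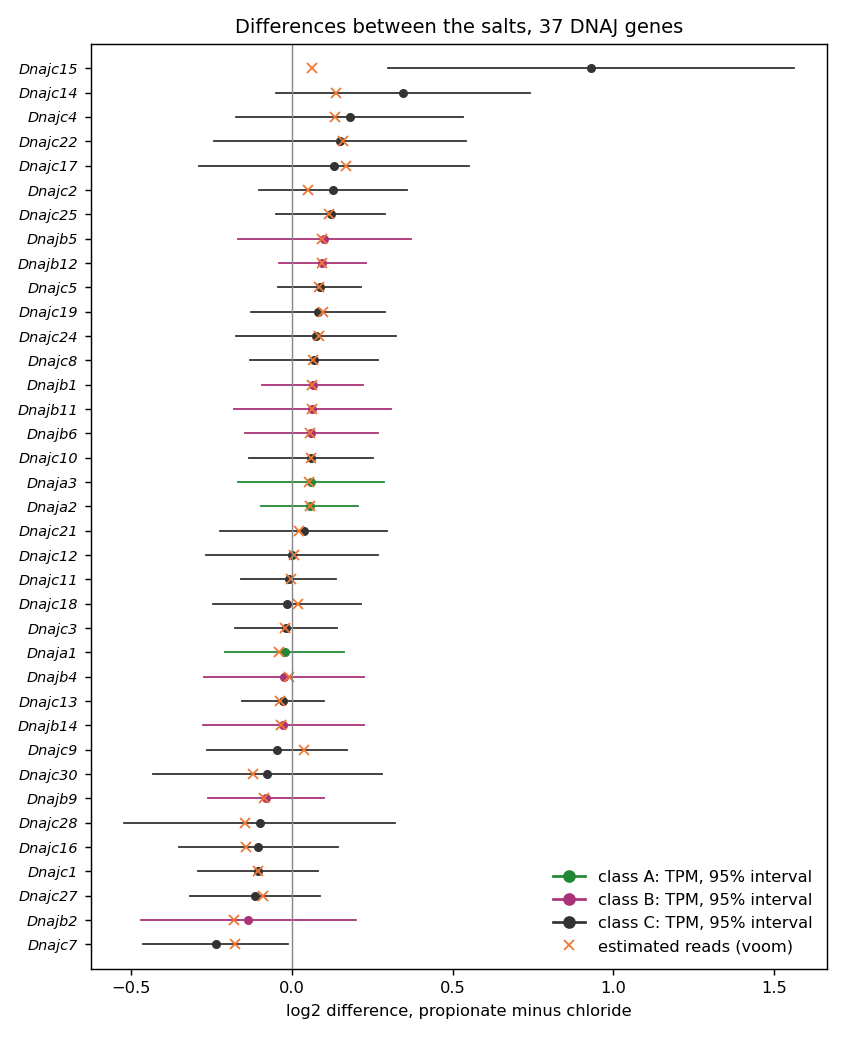
Log2 difference, propionate minus chloride, of the 37 tested DNAJ genes. Circles with lines are the differences in TPM with 95% intervals by limma, coloured by class, and crosses are the differences in estimated reads by voom. Circle and cross lie together for most genes, and for Dnajc15 they lie at 0.93 and 0.06.

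The family median differed between libraries of the same salt. Its deviation from the gene means was 0.01, 0.02 and -0.08 in the chloride libraries 1, 2 and 3 and -0.07, 0.08 and 0.03 in propionate 1, 4 and 5, while the median over all genes was 0.00 in each library, as the scaling sets it. Of the 37 tested members, 27 had a lower mean log2 level over chloride 3 and propionate 1 than over the other 4 libraries. The median of this difference over the tested members was -0.14. Chloride 3 was the lowest chloride library for 23 members and propionate 1 the lowest propionate library for 24. The shares over all genes were not counted, so these numbers are not read as a trait of the family. What sets these libraries apart was not tested. Without both, the median difference between the salts was 0.04. It was -0.01 without propionate 4, 0.00 without chloride 3 and 0.08 without propionate 1.

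**Figure D3:**
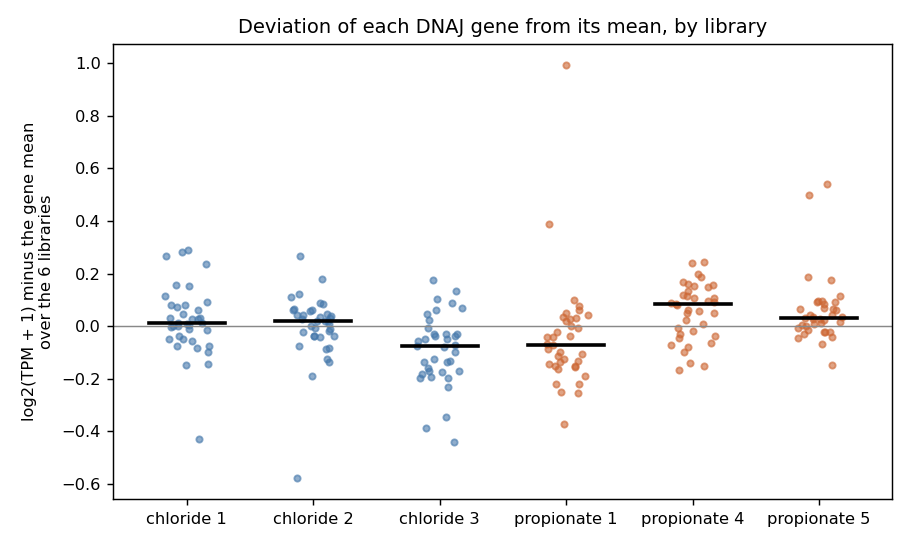
Deviation of each tested DNAJ gene, as log2(TPM + 1) minus the mean of the gene over the 6 libraries, by library. Points are genes and black lines are medians over the family. Chloride 3 and propionate 1 have the lowest medians, at -0.08 and -0.07, and the highest point is Dnajc15 in propionate 1.

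In the cytosol, 8 of 9 listed members were tested, 4 higher and 4 lower, with a median of 0.02. Dnajb1, the classical heat-inducible Hsp40, stood at 46.2, 46.7 and 41.7 TPM in chloride and at 47.0, 48.7 and 45.2 TPM in propionate. The groups overlapped, and the difference was 0.06 (95% interval -0.09 to 0.22, limma adjusted p = 0.933). Dnaja2 and Dnajb6 each differed by 0.06, and Dnaja1 and Dnajb4 each by -0.02, with overlapping groups in each. Dnajc7 had the most negative difference of the family. Its levels were 69.4, 62.1 and 55.0 TPM in chloride 1, 2 and 3 and 48.8, 53.1 and 55.3 TPM in propionate 1, 4 and 5. Only propionate 5 reached the range of chloride, at its lower end. The difference was -0.24 (SE 0.10, limma adjusted p = 0.913), and -0.18 by voom (unadjusted p = 0.071).

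The 11 members of the ER were all tested, with 5 higher, 6 lower and a median of -0.02. Dnajb9, a BiP co-chaperone known as a target of the unfolded protein response, stood at 10.01, 8.91 and 9.499 TPM in chloride and at 8.92, 8.62 and 9.13 TPM in propionate, with overlapping groups and a difference of -0.08 (interval -0.26 to 0.10). Dnajc3, another such target and a lumenal BiP co-chaperone, stood at 50.1, 52.4 and 48.8 TPM in chloride and at 46.2, 52.3 and 50.9 TPM in propionate, a difference of -0.02 (interval -0.18 to 0.14). Dnajb11, described above, differed by 0.06 (interval -0.18 to 0.31), as did Dnajc10 (interval -0.13 to 0.25). For these genes neither direction was shown, and the intervals bound the differences.

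The ER membrane protein Dnajb12 had groups that did not touch. It stood at 32.3, 31.4 and 33.2 TPM in chloride and at 35.8, 33.6 and 34.2 TPM in propionate, which is 0.09 higher (interval -0.04 to 0.23, limma adjusted p = 0.913). The sign rests on the scaling of the libraries: with TPM as deposited the difference was 0.00, at -0.00046. Dnajc25, Dnajc1 and Dnajc16, also of the ER membrane, differed by 0.12, -0.11 and -0.11, each with overlapping groups.

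Dnajc14, an ER membrane protein known for its part in the export of a dopamine receptor, had the second largest difference. Its levels were 24.3, 23.6 and 23.7 TPM in chloride and 23.0, 32.2 and 38.5 TPM in propionate 1, 4 and 5. Propionate 4 and 5 were above every chloride library and propionate 1 below, and the difference was 0.35 (interval -0.05 to 0.74, limma adjusted p = 0.913). Its models overlap those of Sarnp in 1 assembled locus on the plus strand of chromosome 10. Sarnp, an RNA-binding protein of the nucleus, stood at 70.5, 62.3 and 37.6 TPM in chloride and at 47.6, 62.4 and 31.2 TPM in propionate. Summed over the locus, the level was 80.7 ± 17.4 TPM (SD, n = 3) in chloride and 78.3 ± 14.1 TPM (SD, n = 3) in propionate, a difference of -0.03. By voom on estimated reads, Dnajc14 differed by 0.14, with reference transcripts alone by 0.77, and with 1 library left out by 0.18 to 0.54.

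The 6 mitochondrial members split evenly, 3 higher and 3 lower, with a median of 0.02. Dnaja3, a co-chaperone of the matrix, stood at 33.6, 33.2 and 27.0 TPM in chloride and at 31.6, 34.3 and 31.5 TPM in propionate, with a difference of 0.06 (interval -0.17 to 0.29). Without chloride 3 it was -0.04. Dnajc19, a J protein of the import motor of the inner membrane, stood at 60.6, 61.3 and 51.6 TPM in chloride and at 57.5, 66.1 and 59.6 TPM in propionate, a difference of 0.08 (interval -0.13 to 0.29).

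Dnajc15, the relative of Dnajc19 also known as methylation-controlled J protein, had the largest difference of the family in TPM and almost none in reads. It lies on the minus strand at chr14:77820681-77875125 (mm10). Its levels were 2.84, 2.45 and 2.94 TPM in chloride 1, 2 and 3 and 9.28, 3.68 and 6.51 TPM in propionate 1, 4 and 5. Every propionate library lay above every chloride library, and the difference was 0.93 (SE 0.27, interval 0.30 to 1.56, limma unadjusted p = 0.010, adjusted p = 0.913). The estimated reads behind these levels were 824, 701 and 799 in chloride and 851, 1026 and 803 in propionate. Per counted depth the groups overlapped, and voom gave a difference of 0.06 (adjusted p = 0.964).

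The levels and the reads part because of the transcript model to which reads were given. In propionate 1 and 5, 198 and 158 reads were put on Dnajc15-201, a model of 674 nt annotated as a target of nonsense-mediated decay, where they count for 6.78 and 4.55 TPM. This model was listed at 0 in the other 4 libraries. There nearly all reads were on the coding model Dnajc15-202, which is 6392 nt long in the files, so that 824 reads in chloride 1 counted for 2.81 TPM. The models differ by exon 2 of the coding model, 52 nt at chr14:77856939-77856990, which Dnajc15-201 skips. The exon is not a multiple of 3 nt, and the annotated stop codon of Dnajc15-201 lies in the next exon, at chr14:77852939-77852941. The stretch around the exon is shown for each model in the direction of the transcript, from GENCODE M21, with exon 2 in capitals and 24 bases of its neighbour exons on each side.
Dnajc15-202: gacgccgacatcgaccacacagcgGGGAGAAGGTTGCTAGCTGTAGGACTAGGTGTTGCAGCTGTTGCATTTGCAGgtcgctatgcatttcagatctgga
Dnajc15-201: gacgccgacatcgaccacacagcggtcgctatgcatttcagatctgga

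The deposited exon coverage gives a second reading of the skip. Coverage of exon 2 per Gb of depth was 8.80, 5.77 and 8.81 in the chloride libraries 1, 2 and 3 and 10.8, 10.7 and 7.01 in propionate 1, 4 and 5. Relative to exon 3, which both models hold, it was 0.797, 0.635 and 0.615 in chloride and 0.885, 0.866 and 0.680 in propionate. Propionate 1 had the highest of these ratios, and propionate 5 lay within the range of chloride, below chloride 1 and above chloride 2 and 3. Coverage of exon 5 per Gb, summed over the models, was 17.4, 14.4 and 18.8 in chloride and 16.0, 20.5 and 15.8 in propionate, with overlapping groups. The last exon of the coding model, 5790 nt of its length, was covered at only 0.507 to 0.751 per Gb.

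**Figure D4:**
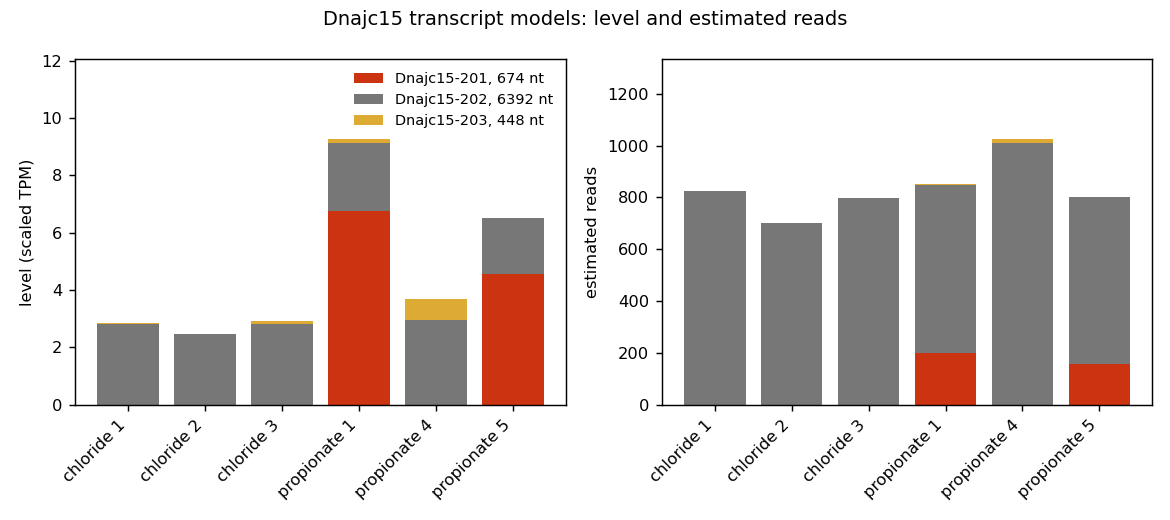
Dnajc15 in each library, as scaled TPM at the left and as estimated reads at the right, stacked by transcript model. The short model Dnajc15-201 appears in propionate 1 and 5 with 198 and 158 reads and makes up most of the TPM there, while total reads lie between 701 and 1026.

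Among members that work on ribosomes, RNA or chromatin, all 5 listed were tested, 4 higher and 1 lower, with a median of 0.07. Dnajc2 differed by 0.13 and Dnajc8 by 0.07, and Dnajc9 by -0.05, all with overlapping groups. Dnajc9 stood at 131.8, 146.3 and 117.2 TPM in chloride and at 118.4, 133.6 and 129.4 TPM in propionate. Of the vesicle members, Dnajc5, the cysteine string protein, and Dnajc13, an endosomal J protein, were tested. Dnajc5 stood at 23.8, 24.7 and 24.6 TPM in chloride and at 26.3, 25.6 and 25.9 TPM in propionate. Its groups did not touch, the difference was 0.09 (interval -0.04 to 0.22, limma adjusted p = 0.913), and with TPM as deposited it was -0.01. Dnajc13 differed by -0.03. Dnajc27, a small GTPase with a J domain, differed by -0.11 with overlapping groups.

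At the level of single transcripts, 94 models of 36 DNAJ genes were tested among 35755. By limma, 0 member transcripts passed an adjusted p of 0.05 (smallest 0.622), against 0.0364% of all transcripts. At an unadjusted p under 0.05, 4 stood higher and 1 lower, which is 5.32% of them against 4.62% of all transcripts (2.42% higher and 2.2% lower). Groups did not overlap for 7 higher and 2 lower member transcripts, 9.57% against 12.6% of all (6% higher and 6.65% lower). Of the 37 tested genes, 26 had the same leading model in all 6 libraries and 11 did not. The leading model was protein-coding in 36, with an assembled model of Dnajb4 as the other.

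The member transcript with the smallest p was Dnaja1-205, listed at 0 in every chloride library and at 3.46, 1.95 and 1.59 TPM in the propionate libraries 1, 4 and 5 (limma unadjusted p = 0.0013, adjusted p = 0.622). Dnajc2-204 stood at 0.809, 0 and 0 TPM in chloride and at 3.32, 2.33 and 1.27 TPM in propionate. Dnajc25-201 stood at 10.9, 11.0 and 9.89 TPM in chloride and at 17.7, 15.2 and 12.6 TPM in propionate. In all 3 the groups did not touch, and none passed the threshold.

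The 3 lower transcripts with the smallest p were 2 retained-intron models of Dnajc9 and 1 model of Dnajc7. Dnajc9-204 stood at 1.53, 2.95 and 2.79 TPM in chloride and at 1.28, 0.965 and 0.999 TPM in propionate. The other, of 820 nt, stood at 30.3, 30.03 and 19.3 TPM in chloride and at 23.3, 8.46 and 7.70 TPM in propionate, with overlapping groups. The coding reads of Dnajc9 were divided unevenly between 2 like models. The assembled MSTRG.6472.2 held 86.4 TPM in chloride 2 and 60.6 TPM in propionate 1 and was at 0 elsewhere, where Dnajc9-201 took its place at 89.0 to 123.5 TPM. Levels of single transcripts here are scaled over transcripts, and model levels of Dnajc15 and Dnaja1 starts over genes. The Dnajc7 model ENSMUST00000239418 stood at 22.4, 31.2 and 7.54 TPM in chloride and at 3.70, 14.7 and 0.0553 TPM in propionate, with overlapping groups. Another model, ENSMUST00000239410, held 11.88 TPM in propionate 5, 0.991 TPM in chloride 2 and 0 elsewhere. The coding Dnajc7-201 averaged 27.85 TPM in chloride and 31.69 TPM in propionate. How reads were divided among these models was not tested.

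Dnaja1-205 is 1 of 4 Dnaja1 models that begin at a downstream first exon, and its start was looked at further because of these values. Dnaja1 lies on the plus strand of chromosome 4, and its total of 103.3, 96.9 and 93.3 TPM in chloride and 87.2, 102.7 and 99.3 TPM in propionate did not separate the groups. Of its models, 3 have a first exon that lies within the upstream first exon, chr4:40722480-40722633. Another 4 have one within the downstream first exon, chr4:40722922-40723136, and 6 belong to neither set. Both of these exons precede the exon with the annotated start codon. The 250 bases before the first RefSeq start of each are shown on the plus strand, from the RefSeq promoter table of GRCm38.p6. The letters GAANNTTC, the core of a heat shock element, are in capitals where they occur.
Dnaja1 upstream start, chr4:40722218-40722467: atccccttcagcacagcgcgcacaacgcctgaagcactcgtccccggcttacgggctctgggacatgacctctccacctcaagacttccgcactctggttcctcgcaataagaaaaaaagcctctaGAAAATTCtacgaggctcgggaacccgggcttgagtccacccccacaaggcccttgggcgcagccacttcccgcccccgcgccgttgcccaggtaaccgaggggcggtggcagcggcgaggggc
Dnaja1 downstream start, chr4:40722672-40722921: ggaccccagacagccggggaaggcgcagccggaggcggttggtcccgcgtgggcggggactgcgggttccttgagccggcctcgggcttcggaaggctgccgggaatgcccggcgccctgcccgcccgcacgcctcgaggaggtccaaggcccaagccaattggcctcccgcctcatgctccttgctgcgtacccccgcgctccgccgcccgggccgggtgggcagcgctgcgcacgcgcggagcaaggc

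The upstream window holds 1 such match and 63.6% G and C, and the downstream window no match and 76.0% G and C. RefSeq lists a further downstream start at chr4:40722930, where Dnaja1-205 begins. Its window, not shown, holds no match and 75.6% G and C. The summed level of the downstream models was 8.62, 7.47 and 4.22 TPM in the chloride libraries 1, 2 and 3 and 7.92, 18.5 and 28.0 TPM in propionate 1, 4 and 5. Propionate 4 and 5 stood above every chloride library and propionate 1 did not. As a share of both sets of models, the downstream set made up 9.31%, 9.26% and 5.60% in chloride and 10.7%, 20.998% and 31.3% in propionate. Coverage of the downstream first exon itself, per Gb and summed over the 4 models, was 1.39, 0.846 and 1.06 in chloride and 0.683, 0.898 and 1.14 in propionate, with overlapping groups. Coverage of the upstream first exon was 28.9, 23.9 and 25.2 in chloride and 28.5, 22.7 and 25.5 in propionate. Coverage of these first exons, summed over the same models, thus did not show the gain seen in the TPM of the models. The models also differ in length and in other exons. The 6 models of neither set were left out of these sums of TPM and of coverage. Among them is the assembled MSTRG.14950.1, which begins further upstream and held 5.34 TPM in chloride 3, more than the downstream models there, and at most 0.447 TPM elsewhere. The assembled MSTRG.14950.5 is another. It begins inside the upstream first exon, at chr4:40722519, and held at most 4.06 TPM, in propionate 4. Any coverage it has over the downstream first exon is not in the values above.

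**Figure D5:**
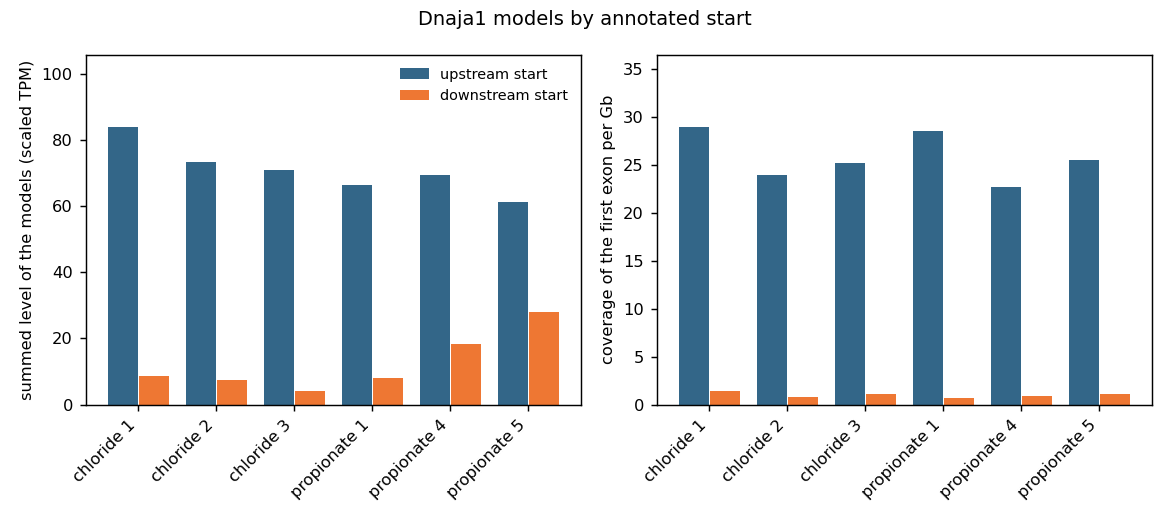
Dnaja1 by annotated start in each library. At the left is the summed scaled TPM of the 3 models with the upstream first exon and the 4 models with the downstream one. At the right is the coverage of these first exons per Gb of depth, summed over the same models alone. The downstream models reach 28.0 TPM in propionate 5, while coverage of their first exon stays between 0.683 and 1.39 in all libraries.

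Promoter windows from 250 bases before to 50 after the RefSeq start were found for 36 of the 44 members and for 27025 genes in all. GAANNTTC, searched on both strands, occurred in 9.04% of all genes and in Dnaja1, Dnaja4, Dnajb6 and Dnajc27. The longer element, GAANNTTC followed by NN and GAA, contains it and occurred in 0.662% of genes and in Dnajb6. The ER stress element, which is CCAAT, 9 bases of any kind and CCACG, occurred in 0.137% of genes and in Dnajc3. CCAAT, which is part of that element, occurred in 41.1% of genes and in 14 members. These matches describe the windows and show no binding.

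The Hsp70 partners of the family were high beside it. Hspa8, the constitutive cytosolic Hsp70, stood at 1517 ± 115 TPM in chloride and 1428 ± 66.1 TPM in propionate (SD, n = 3), the mitochondrial Hspa9 at 499 ± 23.9 and 515 ± 43.9 TPM, and the ER member Hspa5, or BiP, at 486 ± 15.9 and 470 ± 54.7 TPM. The heat-inducible Hspa1a and Hspa1b were under 1 TPM. Of 12 Hsp70 partners tested, 0 passed by limma, with 5 higher and 7 lower and a median of -0.04. The smallest p was that of Hsph1, a nucleotide exchange factor, at 85.7, 80.5 and 91.0 TPM in chloride and 74.7, 70.2 and 72.9 TPM in propionate. Its groups did not touch, and the difference was -0.23 (limma adjusted p = 0.913).

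No member of the other partner lists passed the threshold by limma either. At an unadjusted p under 0.05, 1 gene was lower among the Hsp70 partners, 1 among the cofactors, 1 among the ER chaperones and 2 among the heat shock induced genes, and 1 was higher among the mitochondrial partners. These are 8.33%, 6.67%, 5%, 18.2% and 8.33% of the genes tested in each list, against 5.14% of all genes, and Hsph1 counts in 2 of the lists. The remaining lists had 0. Of 15 nucleotide exchange factors and cofactors, 7 stood higher and 8 lower, and Hspbp1, an exchange factor, had the smallest p at 15.8, 12.4 and 15.2 TPM in chloride and 11.3, 9.17 and 10.1 TPM in propionate, with groups that did not touch. Of 20 ER chaperones and quality control genes, 8 stood higher and 12 lower. Calr, the calcium-binding lectin chaperone calreticulin, had the smallest p there, at 615.4, 547.9 and 468.6 TPM in chloride and 245.3, 436.3 and 336.8 TPM in propionate, again without overlap (difference -0.71, limma adjusted p = 0.913). Of 11 heat shock induced genes tested, 5 stood higher and 6 lower with a median of 0.00. The 2 with an unadjusted p under 0.05 were Hsph1 and Chordc1, a partner of Hsp90, and Chordc1 differed by -0.27. The list of Hsp90 and small heat shock chaperones also holds Hsf1, Hsf2, Hspd1, Hspe1 and partners of Hsp90. Of its 13 genes tested, 7 stood higher and 6 lower, with the heat shock factor Hsf2 first at -0.11. Of 12 mitochondrial import and folding partners, 9 stood higher and 3 lower, and Timm23, the import channel of the inner membrane, differed by 0.27 at 109.1 ± 7.52 TPM in chloride and 131.7 ± 13.1 TPM in propionate (SD, n = 3). Of 11 clathrin and vesicle partners, 6 stood higher and 5 lower, with Ap2s1, a subunit of the clathrin adaptor, first at 0.12. Of 6 J-domain proteins without a DNAJ name, 1 stood higher and 5 lower, with Pam16, a regulator of the mitochondrial import motor, first at -0.60 (limma unadjusted p = 0.197).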

How the data were processed

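Total RNA of 6 GL261 libraries, 3 per salt, was made into libraries with a stranded TruSeq kit, according to the labels. Tools named in the submitters' processing notes are bcl2fastq, fastp, HISAT2 and StringTie, and the build is mm10. Per the file headers, StringTie 2.1.1 estimated coverage, FPKM and TPM for 157296 transcript models in each library, and the authors deposited no counts. The strand setting of StringTie was not given in the sources used here. A listed 0 can be a failed estimate, because reads are divided between overlapping models.

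From the deposited TPM, values were summed per gene, with 274 models for the members. Assembled models (27 of these) were joined to the reference gene with the largest exon overlap on the same strand. Libraries were scaled by the median ratio to the geometric mean. Genes averaging 1 TPM or more, with a transcript of 200 nt or more, entered a two-sided limma 3.58.1 fit on log2(TPM + 1) in R 4.3.3 (variance trend), adjusted by Benjamini-Hochberg over all genes, with a threshold of 0.05. Depth in Gb came from the deposited coverage divided by FPKM. Reads were estimated from deposited coverage, model length and a read length of 101 for voom. Exon structures came from GENCODE M21. The test was checked on simulated data with an independent normal spread for each gene. In these, 200 of 15507 genes were changed, in equal parts by log2 0.3, 0.585, 1 or 2. At the threshold it recovered 5.2% of the differences set at log2 0.3, 42.8% of those at 0.585 and 73.2% of those at 1. Small true differences would thus mostly not pass in such data. Shifts shared by genes of a library were not simulated, so these percentages may not hold for the real libraries. Python 3.11.15 with pandas 2.3.3 and numpy 2.4.6 read the files, and matplotlib 3.10.9 drew the plots.

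Members, lists and alternatives were chosen with earlier results of these data known. Named are the 5 members with the smallest p in each direction, the 10 highest, the 3 highest per class, 7 members taken whatever their values, the 3 transcripts with the smallest p in each direction, and the smallest p of each partner list. Dnajc13, Chordc1, Sarnp, MSTRG.6472.2 and the starts of Dnaja1 were described after their values were seen.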

Additional observations from a re-analysis of the deposited data

How the results depend on the processing

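Under 17 alternatives in scaling, pseudocount, filter, variance model, test, transcript models and libraries, 0 DNAJ genes passed the threshold in each, and 0 DNAJ transcripts under the 15 that applied to them. Over all genes 1 passed, and 0 with no filter on low values, 2 among genes averaging 5 TPM or more, 0 by voom, 6 without chloride 3 and propionate 1, and 1 to 4 when 1 library was left out. The number of DNAJ genes at an unadjusted p under 0.05 by limma was 2, which is 5.41% against 5.14% of all genes. It was 1 with no filter, at an average of 5 TPM or more and with no variance trend, and 0 by voom. It was 3 with reference transcripts alone, with a term for chloride 3 and propionate 1, and without both. When 1 library was left out it was 1 to 3. Shares over all genes are not given for each alternative, so these shifts are not read as a trait of the family. With TPM as deposited the median difference was -0.041 over the family and -0.08 over all genes, and the sign reversed for Dnajb12 (-0.00046), Dnajc5 (-0.0079), Dnajb1 (-0.031), Dnajb11 (-0.033), Dnaja3 (-0.036) and Dnajc19 (-0.016). Dnajb11 also reversed with quantile normalization (-0.0021), Dnajc14 when summed over its locus (-0.034), and Dnajc3 (0.011) and Dnaja3 (-0.023) without chloride 3 and propionate 1. Leaving out 1 library gave -0.054 to 0.034 for Dnajc3, -0.0054 to 0.16 for Dnajb11, -0.041 to 0.11 for Dnaja3, 0.0014 to 0.12 for Dnajc19, 0.013 to 0.094 for Dnajb1, -0.17 to -0.049 for Dnajc16, -0.14 to -0.056 for Dnajc1, -0.12 to -0.045 for Dnajb9, -0.17 to -0.069 for Dnajc27, -0.32 to -0.16 for Dnajc7, 0.18 to 0.54 for Dnajc14 and 0.67 to 1.23 for Dnajc15. Dnajc15 ran from 0.06 by voom to 1.23, with adjusted p between 0.576 and 1.00, and was removed by the filter at 5 TPM. Where no value shows the cause of a change, the cause was not tested. Levels under 1 TPM rest on few reads. No paired analysis was possible because the groups share replicate number 1 only.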
